A study of Homo sapiens with 9 samples.

Results

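The baseline transcriptome of Huh7, an established cell line from a human hepatocellular carcinoma, was described from the 3 control libraries of a series of 9. The 3 libraries were those labelled shControl, replicates 1 to 3, and they were taken by that label alone. The other 6 libraries carry hairpins against IMPDH1 or IMPDH2 and enter no comparison here. The control cells were not untouched: the protocol entered for these samples describes lentivirus in the pLKO.1 backbone made in HEK293T cells, then puromycin selection of the infected Huh7 cells, which gives a stable pool. That text speaks of the knockdowns, and for the controls the label adds only the name of the hairpin. Culture was in DMEM with fetal bovine serum, and polyadenylated RNA of high integrity was turned into strand-specific libraries. The sources used here do not give the sequence of the control hairpin. The series text calls the replicates biological, but how the 3 cultures were kept apart is not stated, so an SD below measures the spread between these 3 libraries, which may in part be technical.

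Hepatocytes secrete most proteins of blood plasma, such as albumin, apolipoproteins, clotting factors and complement. They also run the urea cycle, gluconeogenesis, bile acid synthesis and drug oxidation, functions that mature after birth. Fetal liver makes alpha-fetoprotein alongside albumin and expresses oncofetal genes such as GPC3, IGF2 and IGF2BP1, and liver tumours often turn these genes on again. The liver programme is driven by a small group of transcription factors, among them HNF4A, FOXA2 and CEBPA, part of which the intestinal epithelium shares.

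The promoters of the 4 marker genes that had one in the RefSeq table are shown, all of them genes of proteins that liver secretes. Each sequence is the 250 bases before the RefSeq start on GRCh38.p14, chr4:73404037-73404286 for ALB, chr4:73435971-73436220 for AFP and chr4:154562730-154562979 for FGB, on the plus strand, and chr1:161223629-161223878 for APOA2, on the minus strand. Capitals mark the CCAAT box, the letters CCAAT or their reverse complement ATTGG, a common promoter element known to be bound by the factor NF-Y. This element was chosen after others had been looked at.
ALB: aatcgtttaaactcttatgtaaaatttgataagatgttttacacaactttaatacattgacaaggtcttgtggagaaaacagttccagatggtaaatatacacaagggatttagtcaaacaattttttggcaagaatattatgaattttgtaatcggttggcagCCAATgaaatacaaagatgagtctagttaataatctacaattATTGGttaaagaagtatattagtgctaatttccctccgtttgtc
AFP: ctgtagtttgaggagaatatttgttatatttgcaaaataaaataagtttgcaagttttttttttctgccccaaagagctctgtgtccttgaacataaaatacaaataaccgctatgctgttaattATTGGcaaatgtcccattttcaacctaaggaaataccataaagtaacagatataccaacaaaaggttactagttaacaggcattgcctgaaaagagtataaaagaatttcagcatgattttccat
FGB: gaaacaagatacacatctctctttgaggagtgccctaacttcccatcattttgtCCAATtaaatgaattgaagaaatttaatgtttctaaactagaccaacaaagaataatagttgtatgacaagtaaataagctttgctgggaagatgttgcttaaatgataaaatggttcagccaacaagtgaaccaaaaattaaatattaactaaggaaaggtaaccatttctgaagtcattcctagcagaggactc
APOA2: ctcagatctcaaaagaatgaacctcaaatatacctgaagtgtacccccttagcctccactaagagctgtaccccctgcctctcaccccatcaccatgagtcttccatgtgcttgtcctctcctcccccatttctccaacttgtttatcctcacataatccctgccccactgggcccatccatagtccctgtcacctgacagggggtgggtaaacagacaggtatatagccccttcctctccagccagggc
The boxes in ALB began 86 and 44 bases before the start, that in AFP 125 bases and that in FGB 196 bases before it. Windows of 300 bases, 250 before to 50 after a start, held a CCAAT box in 9747 of 27305 genes (35.7%), and that of APOA2 held none. The window of AFP held 2 matches, against 1 in the 250 bases shown. A match describes letters only, and binding was not measured.

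The libraries held 49402218, 58370328 and 47133179 counts in replicates 1, 2 and 3. Levels are in CPM, each count divided by the TMM-scaled total of its library and set on a shared scale, as the mean ± SD of the 3 libraries (n = 3). A level per length, in TPM from the exon length of each gene, is used wherever genes are compared with each other. The SD of a TPM value does not cover error in that length. A gene counts as expressed here at 1 CPM or more in each library, silent under 0.1 CPM in each library (a limit worth 4.67 to 5.80 counts), and low otherwise. A gene with 0 counts could still be present at up to 3 counts, or 0.0517 to 0.0643 CPM, a limit that covers counting error only. Replicate 1 stood apart from replicates 2 and 3 in its lower content of transcripts from mitochondrial DNA (4.55% of counts, against 5.35% and 5.54%), and other differences of this library are given with the spread below. Its removal moved no level of the marker and IMPDH genes by more than 2.04%.

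Of 58684 genes 13165 were expressed, 6863 were low and 38656 were silent, 30072 of them at 0 counts in all 3 libraries. Among 19232 matched protein-coding genes 61.7% were expressed and 26.0% were silent, the background for each gene list below. Long non-coding genes were expressed in 9.46% of 4068 cases and pseudogenes in 2.96% of 9040. The median level of the expressed genes was 26.9 CPM or 20.7 TPM, and the 95th percentile was 219 TPM. Counts were spread widely: 827 genes were needed to hold 50% of them.

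Plasma protein and mitochondrial transcripts led the list of the most abundant genes (plot of the 20 most abundant transcripts). The 10 top genes held 7.63% ± 0.424 of all counts and the top 100 held 22.1% ± 0.646. They were MT-CO1, MT-ND4, AFP, ALB, APOB, EEF1A1, FN1, MT-CO3, MT-CO2 and SERPINA1. Genes of mitochondrial DNA took 5.15% ± 0.528 of counts and the genes of cytosolic ribosomal proteins 4.96% ± 0.0574. By level per length the first places went to short transcripts: MT-CO2 (28782 TPM), MT-CO1 (27658 TPM) and 4 other mitochondrial mRNAs, then FTL, AFP and ALB. FTL, the ferritin light chain that stores iron, reached 15211 ± 276 TPM. With exon lengths from the basic transcript set, 17 of the 20 genes of highest TPM were the same.

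**Figure D1:**
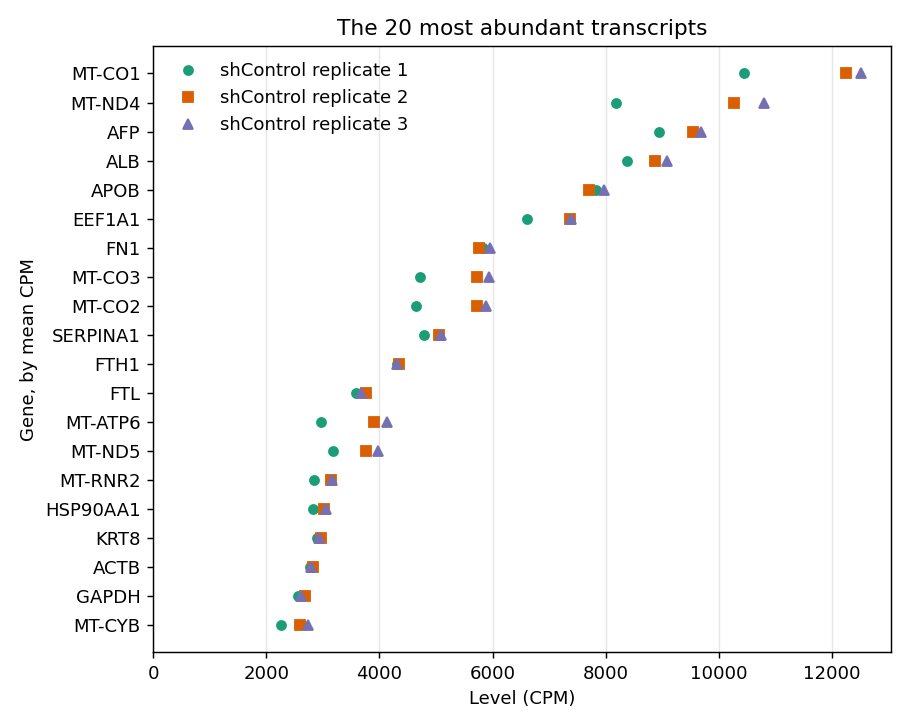
The 20 genes of highest mean level in control Huh7 cells, with level in CPM on a linear axis from 0 and 1 point per library. AFP, ALB and APOB stand among the first 5, and replicate 1 (circles) lies lowest for each mitochondrial gene shown.

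AFP, the fetal counterpart of albumin, was the nuclear gene with the most counts. Its level was 8936, 9549 and 9687 CPM in replicates 1, 2 and 3, a mean of 9391 ± 399.9 CPM. ALB, the main protein of adult plasma, was measured at 8369.8, 8876 and 9080.0 CPM, a mean of 8775 ± 366 CPM. Both genes were lowest in replicate 1, and in each library AFP was above ALB. Per length the means were 10482 ± 122 TPM for AFP and 9453 ± 116 TPM for ALB, neighbouring genes on chromosome 4. The gap was larger than the spread between libraries, which does not cover error in exon length.

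The other markers of the line were expressed as well. APOA2, a protein of high-density lipoprotein, stood at 1337, 1405 and 1384 CPM, and GPC3, a cell-surface proteoglycan used as a liver cancer marker, at 1151, 1215 and 1243 CPM. FGB, the fibrinogen beta chain, stood at 1057, 1157 and 1149 CPM. CDH17, the liver-intestine cadherin, stood at 80.6, 80.6 and 82.2 CPM. Per length APOA2 ranked 16 in the whole table at 5297 TPM, against 1614 TPM for GPC3, 1506 TPM for FGB and 75.7 TPM for CDH17. The 3 libraries differed by less than 10% of the mean for each of these markers, and all 6 markers of the labelled line were expressed.

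Genes of secreted plasma proteins were mostly expressed. Over 5 lists that together hold 123 genes, 97 were expressed (78.9%, against 61.7% of protein-coding genes), 17 were low and 9 were silent, and the 123 genes took 4.82% ± 0.0953 of all counts. Among 24 genes of apolipoproteins and lipoprotein assembly 15 were expressed (62.5%, near the 61.7% of protein-coding genes), 6 low and 3 silent. APOB, the structural protein of LDL and VLDL, stood at 7828, 7714 and 7964 CPM, with no library far from the others. Per length its long mRNA came to 1924 TPM, below APOA2 and below APOA1 (2507 TPM), the main protein of high-density lipoprotein, and above APOE (1589 TPM), a ligand for lipoprotein uptake. MTTP, which loads lipid onto APOB, was at 377 ± 14.1 CPM. The expressed members sat high among all expressed genes, at a median percentile of 94.4 by TPM.

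Of 29 plasma carriers 23 were expressed, 4 low and 2 silent, with a median percentile of 92.7 for the expressed members. TF, the iron carrier transferrin, stood at 2419.7, 2517 and 2513 CPM. AMBP, the precursor of alpha-1-microglobulin and bikunin, stood at 1887, 1883 and 1892 CPM, and AHSG, or fetuin-A, at 1315, 1351 and 1354 CPM. These carriers varied little between libraries, AMBP least with a CV of 0.245%. TTR, the carrier of thyroid hormone and retinol-binding protein, was at 86.8 ± 2.12 CPM (132 TPM, against 3366 TPM for AMBP). The silent carriers were IGF1, the growth factor that adult liver releases under growth hormone, with 1, 3 and 3 counts, and IGFALS, which holds IGFs in plasma, with 3, 4 and 3 counts.

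Clotting genes were nearly complete: 23 of 25 were expressed, PLAT was low and F9 was silent. The fibrinogen genes lay together on chromosome 4 and differed in level per length, FGB at 1506 ± 29.6 TPM, FGA at 507 ± 6.93 TPM and FGG at 502 ± 8.13 TPM. The gap between FGA and FGG was within the spread between libraries, which does not cover error in exon length. F2, prothrombin, was at 234 ± 4.08 CPM, and SERPINF2, the inhibitor of plasmin, at 435 ± 6.87 CPM. F9, the clotting factor missing in haemophilia B, had 0 counts in all 3 libraries.

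Complement genes were expressed in 22 of 26 cases but at a lower rank, with a median percentile of 40.9. C3, the central component, stood at 1633, 1612 and 1631 CPM, and the chaperone-like CLU at 1241 ± 22.8 CPM, while C9, the pore-forming component, was silent with 3, 1 and 1 counts, and CFHR3 had 0 counts. Among 19 acute phase proteins and protease inhibitors 14 were expressed and AZGP1 was silent. SERPINA1, the inhibitor of neutrophil elastase, had the most counts of them at 4779, 5054 and 5096 CPM, lowest in replicate 1. A2M, a broad protease inhibitor, stood at 2044 ± 58.5 CPM. CRP, which rises steeply in the inflamed liver, was low at 0.0797, 0.103 and 0.129 CPM (4, 6 and 6 counts), and SAA1, another protein of that response, was at 5.54 ± 0.598 CPM. The reads of SAA1, ORM1 and the C4 genes can be split with near-identical copies, so their levels are uncertain.

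Each of 40 listed genes of the secretory pathway was expressed, at a median percentile of 94.4. HSP90B1, an ER chaperone, reached 1629 ± 52.6 CPM, P4HB, a protein disulfide isomerase, 1484 ± 7.44 CPM, and HSPA5, or BiP, 1209 ± 45.4 CPM.

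The transcription factors of liver were largely present, 38 of 42 expressed, at a median percentile of 68.6. HNF4A, a nuclear receptor at the centre of the hepatocyte programme, stood at 324, 331 and 323 CPM, and CEBPA, a factor of hepatocyte metabolism, at 339, 327 and 319 CPM. FOXA2, which opens liver chromatin, was at 84.2 ± 2.86 CPM, and NR1H4, the bile acid receptor FXR, at 165 ± 5.57 CPM. Of the receptors that sense drugs NR1I2 (PXR) was at 2.96 ± 0.179 CPM, per length 2.00 TPM against 166 TPM for NR1H4, and NR1I3 (CAR) was low at 0.159, 0.103 and 0.0643 CPM. ESR1, the oestrogen receptor, was low with 0, 8 and 1 counts. SOX9, a factor of bile duct and progenitor cells, was expressed at 142 ± 2.13 CPM. Exons of CEBPA overlap those of a gene on the other strand over 43.4% of their length, and part of its counts could belong to the partner, since whether counting used strand is unknown here. Among other named genes this overlap was 82.4% for IGF1, 77.1% for GLS2, 43.2% for CDK4, 24.4% for VIM, 23.9% for CYP2E1, 16.3% for KRT18, 14.2% for GAPDH, 10.5% for PC and 10.3% for CCND1.

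Fetal liver and liver cancer markers were expressed in 28 of 31 cases, at a median percentile of 84.2. PEG10, an imprinted gene derived from a retrotransposon, stood at 1522, 1520.2 and 1510.5 CPM. IGF2, the fetal insulin-like growth factor, stood at 1125, 1244 and 1271 CPM. PEG10 hardly varied, while IGF2 was lowest in replicate 1. The RNA-binding proteins that mark fetal tissue were present too, IGF2BP1 at 503 ± 11.1 CPM and LIN28B, which blocks let-7 maturation, at 392 ± 8.59 CPM, whereas LIN28A was low at 0.139, 0.155 and 0.257 CPM. HMGA2, a target of let-7, was at 305 ± 5.61 CPM, DLK1 at 116 ± 4.54 CPM and TERT, the catalytic part of telomerase, at 9.51 ± 1.17 CPM. H19, the imprinted non-coding RNA next to IGF2, was low at 0.299, 0.293 and 0.278 CPM, and PEG3 was silent with 0, 1 and 1 counts. Of the stem-like markers EPCAM was at 29.2, 30.2 and 30.7 CPM and KRT19 at 26.1 ± 0.932 CPM, and AKR1B10 and SPP1, both used as liver cancer markers, were near the lower end of expressed genes at 2.03 ± 0.262 and 2.55 ± 0.132 CPM.

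Intestinal genes were split. Of 46 listed 24 were expressed (52.2%), 7 low and 15 silent (32.6%, against 26.0% of protein-coding genes), 10 of them at 0 counts. The members with the most counts were genes that liver also uses: FABP1, a fatty acid carrier, stood at 498, 529 and 503 CPM, and A1CF, a cofactor of APOB mRNA editing, at 316 ± 8.09 CPM. Genes better known from gut were expressed as well. MEP1A, a brush-border protease, stood at 105, 114 and 113 CPM, and CDX2, the homeobox factor that specifies intestine, at 41.1, 40.5 and 37.9 CPM. ISX, an intestinal homeobox factor, was at 14.9 ± 1.27 CPM and GUCY2C, the receptor for guanylin, at 6.84 ± 0.42 CPM. CDX1, the relative of CDX2, was silent with 0, 0 and 3 counts, as were MUC2, the goblet cell mucin (1, 0 and 1 counts), and KRT20, FABP2 and OLFM4. VIL1, or villin, stood at 296 ± 2.55 CPM, with 44.0% of its exon bases overlapped by a gene on the other strand.

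Of 19 biliary and progenitor genes 14 were expressed, CD24 with the most counts at 574 ± 19.2 CPM, and KRT7, the keratin of bile ducts, had 0 counts. The epithelial structure list was expressed in 19 of 24 cases. KRT8 and KRT18, the keratin pair of hepatocytes, stood at 2932 ± 32.5 and 1215 ± 8.75 CPM. Epithelial CDH1 (93.8 ± 2.32 CPM) and CDH2, the N-cadherin that hepatocytes also carry (109 ± 0.876 CPM), were both present, as was VIM (338 ± 4.70 CPM). Of genes that drive epithelial-mesenchymal transition, TWIST1 was silent, and SNAI2 and ZEB2 were low.

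A group of 7 lists was expressed in a smaller share than secreted proteins, but above the 61.7% of protein-coding genes. It joined liver transcription factors with P450, conjugation, alcohol and aldehyde, urea cycle, amino acid breakdown, and gluconeogenesis and glycogen genes. Of its 258 genes 183 were expressed (70.9%), 51 were low and 24 silent (9.30%, against 26.0% of protein-coding genes). The 258 genes took 1.27% ± 0.00727 of all counts. Outside the P450 list the expressed shares ran from 71.1% for conjugating enzymes to 90.5% for the transcription factors. The cytochrome P450 list had the smallest expressed share of the liver lists, 17 of 47 (36.2%), with 21 low and 9 silent. POR, the reductase that feeds electrons to these enzymes, had the most counts of the list at 168 ± 2.19 CPM. CYP1A1, induced by aryl hydrocarbons, stood at 54.4, 53.5 and 53.8 CPM, and CYP27A1, which oxidises the sterol side chain, at 47.1 ± 1.07 CPM. The major drug-oxidising enzymes of adult liver lay at the bottom. CYP3A4 had 3, 8 and 3 counts (0.0598, 0.138 and 0.0643 CPM), and CYP2E1 was at 0.876, 0.828 and 0.943 CPM. CYP3A7, the fetal member of the CYP3A group, was also low at 0.558, 0.69 and 0.428 CPM, and CYP3A5 was expressed at 6.78 ± 0.536 CPM. The silent members were CYP1A2, CYP2A7, CYP2A13, CYP2C19, CYP4A11, CYP4A22, CYP4F11, CYP4X1 and CYP7A1.

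Conjugating enzymes were expressed in 32 of 45 cases. GSTP1, a glutathione transferase that adult hepatocytes make little of, stood at 802, 804 and 778 CPM, and per length at 1514 TPM against 290.1 TPM for GSTO1. GLYAT, the glycine conjugase of liver mitochondria, had 0 counts, and UGT1A3, UGT1A4, UGT2B17 and GSTA3 were also silent. Among 41 genes of alcohol and aldehyde metabolism 30 were expressed. ALDH1A1, which makes retinoic acid from retinal, stood at 1593, 1671 and 1717 CPM, lowest in replicate 1. The class I alcohol dehydrogenases of adult liver were all low, ADH1A at 0.12, 0.069 and 0.0857 CPM, ADH1B at 0.359, 0.5 and 0.3 CPM and ADH1C at 0.339, 0.31 and 0.364 CPM, while ADH5, the class III enzyme found in most tissues, was at 184 ± 7.17 CPM.

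The enzymes of the urea cycle were each expressed, but at unequal levels per length. CPS1, which fixes ammonia at the first step, stood at 10.4, 11.4 and 11.3 CPM, or 3.73 ± 0.0675 TPM. OTC, the next enzyme, came to 3.41 ± 0.421 TPM, ASS1 to 44.4 ± 1.31 TPM, ASL to 55.9 ± 3.25 TPM and ARG1 to 22.4 ± 2.77 TPM. The mitochondrial steps CPS1 and OTC were thus the lowest of the cycle. The gap between CPS1 and OTC was within the spread between libraries, which does not cover error in exon length. GLUL, which captures ammonia as glutamine in pericentral hepatocytes, stood at 506, 531 and 524 CPM. Amino acid breakdown was expressed in 36 of 45 genes, with HGD of tyrosine breakdown at 197 ± 3.20 CPM. TAT, the first enzyme of that route, was at 1.91 ± 0.128 CPM, TDO2, which opens tryptophan breakdown, was low at 0.219, 0.345 and 0.364 CPM, and SDS, IDO2 and ASPG were silent.

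The hormone-controlled enzymes of gluconeogenesis were scarce. PC, which makes oxaloacetate, stood at 402, 377 and 384 CPM. PCK1, the cytosolic PEP carboxykinase, was low with 6, 6 and 7 counts, and G6PC, which releases free glucose, was low with 4, 8 and 5 counts. FBP1 was expressed near the limit at 1.39 ± 0.0197 CPM. Of the whole list of 24 genes of gluconeogenesis and glycogen, 18 were expressed, 5 low and FBP2, the muscle form, silent. Of 45 glycolysis genes 32 were expressed at a median percentile of 80.1, GAPDH and ENO1 first by CPM at 2619 ± 57.7 and 2017 ± 42.4 CPM. Lactate dehydrogenase RNA came from LDHA at 747, 773 and 787 CPM, while LDHB had 0, 4 and 5 counts. Silent members included HK3, PFKP, PFKFB1, PGAM2 and LDHC.

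A set of 10 pairs, chosen after the values were seen, put a form typical of adult liver beside another form or a related gene. Whether the other form is also usual in adult liver was not examined. The other form was higher per length in each of the 3 libraries for all 10 pairs, a count that the choice of pairs fixed. Pairs outside this set went the other way: CPT1A, the liver form, stood at 8.78 ± 0.152 TPM against 0.49 ± 0.169 TPM for CPT1B, the muscle form, and FBP1 at 2.92 ± 0.0654 TPM with FBP2 silent, and AMPD2 at 72.4 ± 6.20 TPM with AMPD1, the muscle form, silent. Pyruvate kinase came as PKM (804 ± 17.5 TPM) rather than PKLR (0.948 ± 0.101 TPM), 849-fold apart on the TPM scale. The mitochondrial PCK2 came to 61.4 ± 3.36 TPM and its cytosolic counterpart PCK1 to 0.0663 ± 0.012 TPM, and glycogen synthase to 45.3 ± 2.07 TPM for GYS1 and 0.237 ± 0.0906 TPM for GYS2. Transport of glucose was of the SLC2A1 type, 51.5 TPM against 0.875 TPM for SLC2A2. Other pairs lay closer, with MAT2A 18.7-fold above MAT1A, ARG2 2.76-fold above ARG1 and PYGB 1.46-fold above PYGL. Exons of PKLR, MAT2A and ARG2 overlap a gene of the other strand over 17.6%, 12.4% and 37.4% of their length.

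**Figure D2:**
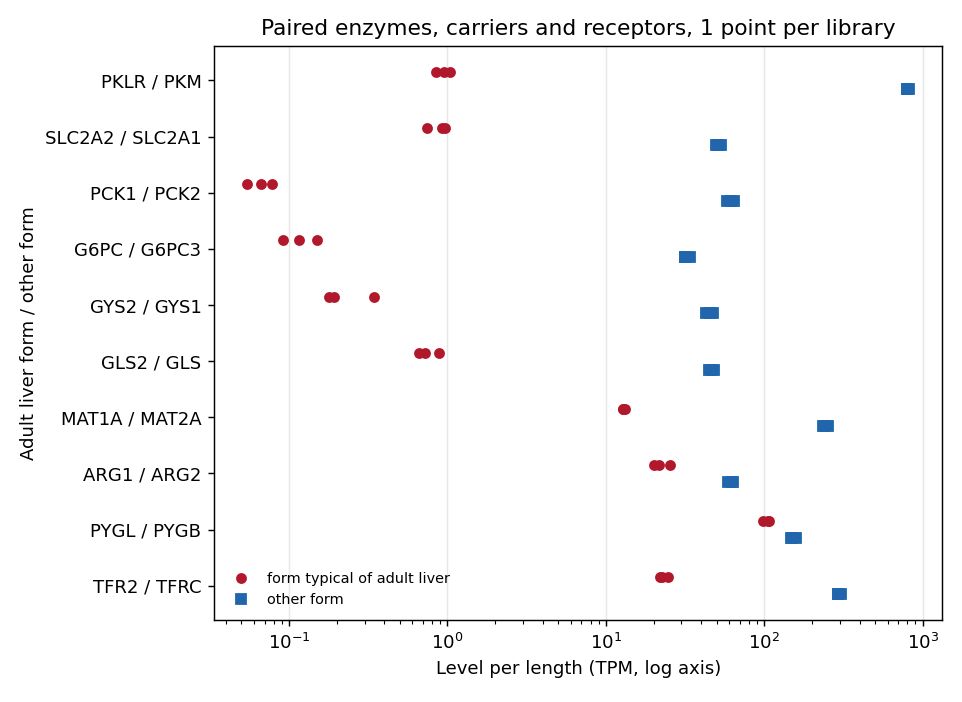
Level per length (TPM, log axis) of the form typical of adult liver (circles) and of the other form (squares) for 10 pairs chosen after their values were seen, 1 point per library. The squares lie to the right of the circles in each pair, from 1.46-fold for PYGB over PYGL to 927-fold for PCK2 over PCK1.

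Lipid synthesis was expressed in 40 of 43 genes, at a median percentile of 88.5. SCD, which adds the double bond to stearate, stood at 2458, 2534 and 2562 CPM, and FASN, fatty acid synthase, at 1539, 1398 and 1394 CPM. SCD was lowest and FASN highest in replicate 1. FADS2, a desaturase of polyunsaturated fatty acids, was at 1160.2 ± 8.63 CPM, and THRSP was silent with 1, 3 and 0 counts. Fatty acid oxidation was expressed in 36 of 43 genes, with CPT1A, the gate to mitochondrial oxidation, at 15.8 ± 0.755 CPM. FGF21, a fasting hormone of liver, was silent with 3, 0 and 4 counts.

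Bile acid genes were expressed in 23 of 35 cases (65.7%, near the 61.7% of protein-coding genes). CYP7A1, the rate-limiting enzyme of bile acid synthesis, had 0 counts in all 3 libraries, and CYP8B1 was low with 3, 2 and 6 counts. SLC10A1, the bile acid importer NTCP and entry receptor of hepatitis B virus, was silent with 3, 4 and 3 counts, and SLC10A2 had 0 counts. ABCB11, the bile salt export pump, was low at 0.876, 1.03 and 0.835 CPM, while the conjugate exporter ABCC2 was at 109 ± 2.61 CPM. The receptor arm that represses CYP7A1 was expressed: FGFR4 stood at 525, 494 and 495 CPM, its co-receptor KLB at 242 ± 4.36 CPM and their ligand FGF19, a hormone made mainly in ileum, at 38.8, 38.4 and 39.1 CPM.

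Among 37 other hepatocyte transporters and receptors 32 were expressed and AQP9 was silent. LRP1, a large endocytic receptor, stood at 1233 ± 33.7 CPM, and ASGR2, of the asialoglycoprotein receptor, at 391 ± 7.10 CPM. Iron and copper genes were expressed in 27 of 28 cases. FTH1, the ferritin heavy chain, stood at 4303, 4342 and 4313 CPM, with 62.4% of its exon bases overlapped by a gene on the other strand, and HAMP, the iron hormone hepcidin, at 72.9 ± 2.51 CPM. TFRC, the transferrin receptor of dividing cells, was at 295 TPM, against 23.1 TPM for TFR2, the hepatic form.

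Summed over 15 lists of liver function, 351 of 466 genes were expressed (75.3%), 79 were low and 36 were silent (7.73%, against 26.0% of protein-coding genes). Of the 36 silent genes 17 had 0 counts. They were 9 secreted proteins (APOC4, APOF, CETP, IGF1, IGFALS, F9, C9, CFHR3 and AZGP1), 2 transcription factors, AQP9, and 24 metabolic, drug and bile acid genes. The number depended on the limit: 83 were under 0.5 CPM in each library. Whether a silent gene was off in each cell or kept by a few cells cannot be told apart in bulk RNA, nor can fewer cells with a transcript from less of it per cell for any gene here.

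Genes of DNA replication and mitosis were expressed without exception on their lists. Each of 34 genes of S phase and DNA replication was expressed, at a median percentile of 84.8, and each of 38 genes of G2 and mitosis, at 89.1. TOP2A, the topoisomerase of dividing cells, stood at 939.7, 1003 and 1012 CPM, and MKI67, the proliferation antigen, at 601, 613 and 631 CPM. Both were lowest in replicate 1. MCM7, of the replicative helicase, stood at 713 ± 5.61 CPM and PCNA, the polymerase clamp, at 289.8 ± 4.61 CPM. Of 52 genes of G1 control, checkpoints and liver tumours 50 were expressed. CCND1 was at 232 ± 2.14 CPM with CCND2 low at 0.12, 0.241 and 0.0643 CPM and the inhibitor CDKN1A at 16.8 ± 0.784 CPM. RPS6KA3, which encodes the kinase RSK2 and is mutated in some liver cancers, had the most counts of this list at 1040.5, 1044 and 1049 CPM, and FAS, a death receptor, was low with 11, 10 and 1 counts.

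Purine synthesis, the pathway the series perturbs, was expressed in 25 of 29 genes at a median percentile of 80.1. IMPDH2, the isozyme usual in dividing cells, stood at 225, 227 and 229 CPM, and IMPDH1 at 62.7, 62.3 and 62.4 CPM. Per length IMPDH2 came to 298 ± 7.56 TPM and IMPDH1 to 62.1 ± 2.21 TPM. Both varied little, with a CV of 0.83% and 0.359%. PAICS, of the de novo route, had the most counts of the list at 577 ± 22.8 CPM. PRPS1, which makes the phosphoribosyl donor, was at 90.8 ± 4.80 CPM, PRPS2 was near the limit at 1.27 ± 0.287 CPM, and AMPD1, the muscle AMP deaminase, was silent. Of 22 pyrimidine and deoxynucleotide genes 21 were expressed, with the most counts for RRM2, of ribonucleotide reductase, at 220.1 ± 4.23 CPM.

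Zonation genes, which in liver tissue mark the region around the portal or central vein, were expressed in about the share of all protein-coding genes. Of 31 listed 19 were expressed (61.3%, against 61.7% of protein-coding genes), 6 low and 6 silent (19.4%, against 26.0%). CTNNB1, or beta-catenin, stood at 597 ± 4.75 CPM. Of its pericentral targets LGR5 stood at 32.5 ± 1.40 CPM and AXIN2 at 3.87 ± 0.461 CPM, and the pericentral enzyme CYP1A2 was silent. GLUL, another such target with its CPM given above, stood at 209.7 TPM, a unit not to be set against these CPM. RSPO3 and WNT2, signals that endothelial cells send, were silent.

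Markers of other cells that liver cultures can hold were mostly silent. Of 87 on 5 lists 12 were expressed, 15 low and 60 silent, 34 of them at 0 counts. The summed level was 109 to 111 CPM for 17 stellate cell and fibroblast markers (6 expressed), 35.3 to 35.9 CPM for 19 endothelial markers (2 expressed), and 892 to 940.4 CPM for 18 macrophage markers (4 expressed). For 16 lymphocyte markers it was 1.00 to 1.20 CPM and for 17 erythroid markers 0.0517 to 0.120 CPM, with none expressed. Among defining genes PTPRC had 4, 0 and 0 counts, VWF 3, 1 and 1 counts and CD68 4, 0 and 2 counts. Of the 12 expressed markers LYZ, lysozyme, made up nearly all of the macrophage sum at 883, 923 and 931 CPM, and the other macrophage markers were CD14 at 4.58 ± 0.249 CPM, TIMD4 at 1.97 ± 0.266 CPM and FCER1G at 1.94 ± 0.0456 CPM. The stellate cell and fibroblast markers were COL1A2, a fibrillar collagen chain, at 70.4 ± 0.244 CPM, the receptors PDGFRB at 12.9, 13.8 and 12.3 CPM and PDGFRA at 10.5 ± 0.321 CPM, RGS5 at 7.89, 7.09 and 7.52 CPM, COL1A1 at 4.92 ± 0.137 CPM and COL3A1 at 2.41 ± 0.302 CPM. The endothelial markers were EGFL7 at 21.6 ± 0.355 CPM and PECAM1 at 12.6 ± 0.675 CPM. The part of other cells in these levels was not tested. Exons of LYZ overlap a gene on the other strand over 34.0% of their length.

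The 3 libraries were close to each other. The common biological CV, edgeR's estimate of the spread beyond counting, was 0.0285, and 0.0160 without replicate 1. For 9361 genes at 10 CPM or more, 96.1% lay within 10% of each other in replicates 2 and 3, 93.1% in 1 and 2, and 89.4% in 1 and 3. The mean chi-square per gene was 1.97 for replicates 2 and 3, 6.95 for 1 and 2, and 8.40 for 1 and 3, each above the 1 that counting alone gives, so no pair was treated as 1 library deposited more than once. This does not show that the libraries came from separate cultures. Replicate 1 was the library farthest from the others for 4341 of the 9361 genes (46.4%), replicate 2 for 2148 and replicate 3 for 2872. Across all expressed genes the median ratio of replicate 1 to the mean of the others was 0.997.

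Spread fell with level, then stopped falling. The median CV was 10.1% for genes of 1 to 3 CPM, where counting alone would give 8.57%, and 2.07% for genes of 100 to 300 CPM, where counting would give 0.961%. For the 89 genes of 1000 CPM or more it was 2.86%, against 0.301% from counting. Between replicates 2 and 3 it was 0.868% for these genes, against 0.244% from counting over a pair of libraries.

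**Figure D3:**
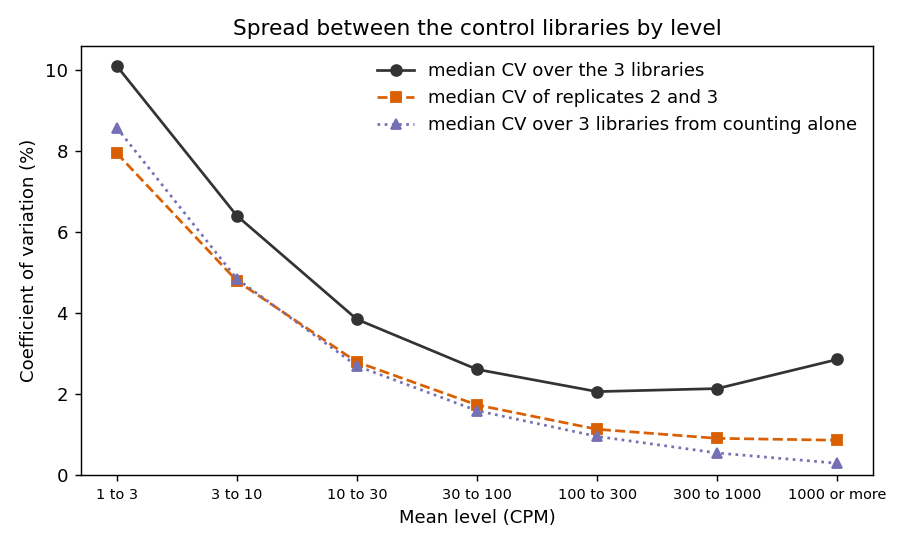
Median coefficient of variation (percent) of genes grouped by mean level (CPM), over the 3 libraries (circles), between replicates 2 and 3 (squares), and as counting alone would give over 3 libraries (triangles), and at equal spread a pair of libraries gives a lower median than 3. The curve of the 3 libraries lies above the counting curve at every level and reaches 2.86% at 1000 CPM or more, where replicates 2 and 3 give 0.868%.

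Of 9361 genes 95 had a CV over 10%, and in 67 of them replicate 1 was farthest from the others. EXOC3L4 varied most, at 21.2, 17.7 and 14.6 CPM (CV 18.5%), followed by FTCD, an enzyme of histidine breakdown, at 12.7, 9.41 and 9.36 CPM (18.4%). Then came ATHL1, SFI1 and MT-ATP6, the last at 2972, 3902 and 4127 CPM (16.7%), and HELLPAR, MST1L, RP11-159D12.2, MICALL2 and MT-ND2. Except for the mitochondrial genes, these were highest in replicate 1. The steadiest was MBTPS1, the protease that activates SREBP, at 121, 121 and 121 CPM, followed by PRKCA, YKT6, ZNF519 and NID1.

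Among the 30 gene lists with a summed level of 1000 CPM or more, the mRNAs of mitochondrial DNA moved most between libraries. Their summed level was 41486, 50284 and 52354 CPM, which is 13.6% below the mean in replicate 1 and 4.67% and 8.98% above it in replicates 2 and 3. Of these lists 22 were lowest in replicate 1, but none of the other lists lay more than 3.98% from its mean in any library. The median ratio of replicate 1 to the others, over the expressed members of a list, ran in these lists from 0.823 for the mitochondrial mRNAs and 0.960 for the urea cycle to 1.01 for amino acid breakdown. The part of the mitochondrial share in the other differences of replicate 1 was not tested.

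**Figure D4:**
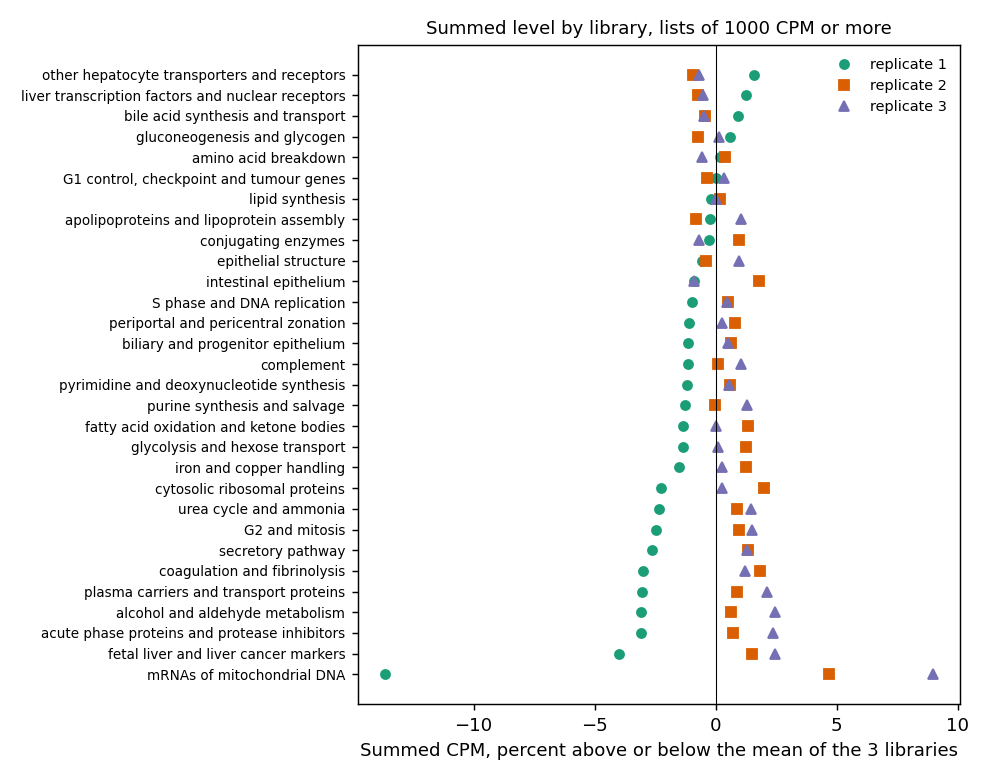
Summed level of each list of 1000 CPM or more in each control library, as percent above or below the mean of the 3 libraries. Mitochondrial mRNAs range from -13.6% in replicate 1 to 8.98% in replicate 3, and no other list leaves the mean by more than 3.98%.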

How the data were processed

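The deposited table, made by the authors, holds raw counts for each gene symbol and library. The submitters' processing notes name Trim Galore, cutadapt, STAR, featureCounts and the build hg38. The sources used here do not give the annotation release, strand setting or treatment of multiply mapped reads. Symbols were matched to GENCODE 29 (37056 directly, 827 by an older symbol); unmatched genes held 0.534% of counts. CPM were computed with edgeR 4.0.16 in R 4.3.3, with TMM factors from the 16081 genes that passed its default filter in the 3 control libraries. TPM used the union of a gene's exons. The spread came from an intercept-only fit with edgeR, tested on simulated data; no group was compared and no p-value computed. Alternatives were library totals, DESeq2 1.42.0 size factors, TMM over all 9 libraries (the only use of the other 6), totals without mitochondrial genes, other limits, and each replicate left out. Promoters are from RefSeq; the motif was chosen after others had been looked at, and its share among secreted protein genes is not given because 69 of 97 had a promoter in the table.

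Genes were named by a rule: the 6 markers, the 20 highest by CPM and by TPM, the 4 highest and the silent members of each list, IMPDH1 and IMPDH2, and the 10 largest and 5 smallest CVs. Others, such as low members and the 10 pairs, were chosen after their values were seen. The members and the 36 lists were chosen with earlier results of these data known. Some genes and a motif that this rule or the search gave are not reported here.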

Additional observations from a re-analysis of the deposited data

How the results depend on the processing

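No scaling changed the class counts by 1.5 times: 13140 to 13234 genes were expressed with library totals, DESeq2 size factors, TMM over 9 libraries or totals without mitochondrial genes, and 36 liver genes were silent under each. Limits of 0.5 and 2 CPM gave 14357 and 12033 expressed genes. The count of silent liver genes followed its limit, 83 under 0.5 CPM and 17 at 0 counts, and was 38 under 0.1 TPM. The top 10 and top 100 genes held 6.10% and 19.002% without mitochondrial genes, and 18.7% and 38.1% of TPM, which weights short transcripts.

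With each replicate left out in turn, expressed genes ranged from 13198 to 13270, silent liver genes from 38 to 40, the top 10 share from 7.46% to 7.87%, the top 100 share from 21.8% to 22.4% and the common biological CV from 0.0160 (without replicate 1) to 0.0362 (without replicate 2). Of 56 levels of marker and IMPDH genes under the alternatives 45 moved by less than 1 SD, and the largest move was 5.43%, with totals without mitochondrial genes. Exon lengths from the basic transcript set were an alternative chosen after seeing the data. No paired analysis was possible because a single group was described and no test was made. Depth limits genes of 1 to 3 CPM most: their median CV was 10.1%, and counting alone would give 8.57%.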

Other observations

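Some of the most abundant transcripts belonged to no list of liver function and were picked out after their values were seen. COL2A1, the collagen of cartilage, stood at 1638, 1580.2 and 1562 CPM (mean 871 TPM), above the collagens of the stellate cell list, COL1A2 at 23.0 TPM and COL1A1 at 1.83 TPM. CKB, the brain form of creatine kinase, was at 874, 859.7 and 826 CPM, and NID1, a basement membrane protein, at 601, 601 and 602 CPM. LYZ, lysozyme, ranked 100 in the whole table by CPM. These genes varied by less than 3% (CV) between the 3 libraries.

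Several pairs of related or neighbouring genes, picked out after their values were seen, were split between a high and a near-absent member. The choice of pairs fixed this split, and the counts are not scaled for length. LDHA gave 37508, 44829 and 36728 counts and LDHB 0, 4 and 5 counts. CDX2 gave 2061, 2347 and 1770 counts and CDX1 0, 0 and 3 counts. LIN28B gave 19254, 22706 and 18706 counts and LIN28A 7, 9 and 12 counts. CCND1 gave 11622, 13384 and 10961 counts and CCND2 6, 14 and 3 counts. IGF2 gave 56452, 72121 and 59346 counts, while its imprinted neighbour H19 gave 15, 17 and 13 counts.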
